A study of Mus musculus with 9 samples.

Results

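Ido1 and Wars1 encode enzymes that compete for the same substrate, the amino acid tryptophan. The rows of both genes were found by matching their Ensembl gene IDs in the deposited tables, which gave 2 of 29288 genes. Libraries came from intestinal epithelial cells (IECs) of female wild-type C57BL/6J mice, sorted from crypts of the proximal small intestine as live EpCAM+ Ter119- CD31- CD45- cells. The control group (PBS, 18 h), the 18h-αGal group and the 72h-αGal group held 3 mice each, and the αGal groups had received 2 µg of α-galactosylceramide (αGalCer) by intraperitoneal injection 18 or 72 h earlier. αGalCer is a glycolipid. Presented on CD1d, it activates natural killer T (NKT) cells, so the treatment acts first on another cell type than the IECs sequenced. The controls were collected at 18 h only, and at 72 h the treatment and the time of sampling cannot be told apart.

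IDO1 opens the tryptophan ring in the first and rate-limiting step of the kynurenine pathway, which uses up tryptophan and yields kynurenine, ligands of the aryl hydrocarbon receptor and, at its far end, NAD. WARS1 is the cytosolic tryptophanyl-tRNA synthetase, which loads tryptophan onto its tRNA for protein synthesis. Both genes are known targets of IFN-γ, and in many cell types they rise together. Ido1 (ENSMUSG00000031551) is a protein-coding gene on the minus strand of chromosome 8 from 25074150 to 25087025, and its canonical transcript has 10 exons and 1562 bases. Wars1 (ENSMUSG00000021266) is a protein-coding gene on the minus strand of chromosome 12 from 108825955 to 108860188, with a canonical transcript of 10 exons and 2831 bases. Positions are those of GRCm39 in GENCODE vM39. No exon of another gene overlapped either of them, and 0 of the 50-base words in their transcripts (1778 for Ido1 and 7621 for Wars1) occurred in a transcript of another gene, Ido2 and Wars2 included.

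The libraries held from 8887861 to 32722293 counts. All 8 epithelial marker genes were counted in every library, with summed normalised counts (raw counts divided by 1 size factor per library) between 85874 and 128200. Markers of lymphocytes were low, with 10 of 14 in the table and summed normalised counts of 71.3 to 82.8 in the controls, 41.4 to 92.7 in 18h-αGal and 41.2 to 151 in 72h-αGal. For macrophage and dendritic cell markers, 12 of 15 were in the table, with sums of 347 to 664, 484 to 715 and 696 to 945. Cd68 alone had means of 365, 436 and 612 normalised counts. In edgeR, 7 of the markers were tested. Their smallest adjusted p was 0.585 at 18 h and 0.81 at 72 h, both against control, and 0.133 from 18 to 72 h. Between 4 and 5 of these 12 were at 0 in each 18h-αGal library. The smallest library, control replicate 3, stood apart from the other 8 on the second principal component, and results without it are given where they matter.

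Wars1 transcripts rose 18 h after αGalCer and were near the control level at 72 h. Normalised counts of Wars1 were 2175, 2604 and 2247 in the control mice, 9164, 9534 and 6112 in 18h-αGal, and 2862, 2268 and 2598 in 72h-αGal. The lowest 18h-αGal library was therefore well above the highest library of both other groups, while control and 72h-αGal overlapped. Replicates were higher without overlap from control to 18 h for 11.5% of genes tested. From 18 to 72 h they were lower without overlap for 16.3%. The means were 2342 ± 229 (SD, n = 3), 8270 ± 1878 and 2576 ± 298. Wars1 was 3.55-fold higher in 18h-αGal than in control, a log2 fold change of 1.83 ± 0.16 (SE; 95% confidence interval 1.48 to 2.18), and edgeR's quasi-likelihood test gave adjusted p = 4.9e-05. In this comparison 3.27% of the 18933 genes tested were called higher at an adjusted p under 0.05, and 2.69% were called lower. By p-value Wars1 ranked 5 among all genes tested, although 165 called genes had a larger fold change. In bulk RNA of sorted cells, a change in the share of a cell type and a change in RNA per cell cannot be told apart.

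From 18 to 72 h Wars1 fell by 1.68 ± 0.16 on the log2 scale, or 3.20-fold (95% confidence interval -2.02 to -1.33, adjusted p = 5.89e-05). In that comparison 6.04% of genes were called lower and 4.18% higher. Between 72h-αGal and control the log2 fold change of Wars1 was 0.15 ± 0.16 (95% confidence interval -0.19 to 0.49, adjusted p = 0.946), and only 0.0264% of all genes were called in either direction.

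Ido1 also had its highest levels at 18 h, but it varied widely between mice of the same group, and edgeR did not call it. Normalised counts of Ido1 were 241, 37.0 and 278 in the controls, 2736, 1830 and 1087 in 18h-αGal, and 164.5, 455 and 28.7 in 72h-αGal. All 3 mice of 18h-αGal were above all 6 of the other mice, and control and 72h-αGal overlapped. The means were 185 ± 130 (SD, n = 3), 1884 ± 826 and 216 ± 218. The coefficient of variation of Ido1 was 70.0% in control, 43.8% in 18h-αGal and 101% in 72h-αGal, against 9.80%, 22.7% and 11.6% for Wars1.

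**Figure D1:**
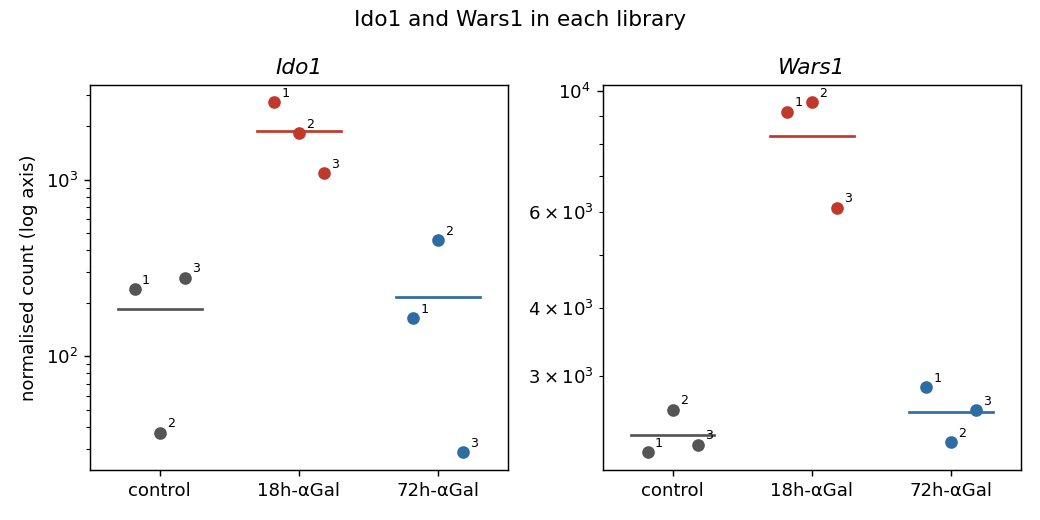
Normalised counts of Ido1 (left) and Wars1 (right) on log axes, 1 point per library with its replicate number, for control, 18h-αGal and 72h-αGal. Horizontal lines are means of 3 mice. All 3 points of 18h-αGal lie above the others for both genes, and Ido1 spreads from 37.0 to 278 within the controls and from 28.7 to 455 within 72h-αGal.

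The log2 fold change of Ido1 from control to 18h-αGal was 3.40 ± 1.12, or 10.5-fold, with a wide 95% confidence interval from 0.70 to 6.10. Its unadjusted p was 0.0214 and its adjusted p 0.15, so Ido1 was not called by edgeR. DESeq2, the tool of the study, gave a similar log2 fold change of 3.35 with an adjusted p of 0.0214 and called it. DESeq2 called 3.55% of the 21860 genes it tested as higher and 4.03% as lower. Replicates did not overlap and were higher at 18 h for 11.5% of genes tested, so the separation of the Ido1 libraries is not rare in these data. The standard error of Ido1 was larger than that of 86.6% of genes, where the median was 0.33.

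From 18 to 72 h the log2 fold change of Ido1 was -3.14 ± 1.09 (95% confidence interval -5.78 to -0.50, adjusted p = 0.141). DESeq2 gave a log2 fold change of -3.13 with an adjusted p of 0.0252. Lower values without overlap were found for 16.3% of genes in that comparison, and DESeq2 called 6.71% lower. The 72h-αGal group differed from control by 0.26 ± 1.07 (95% confidence interval -2.33 to 2.84, adjusted p = 0.996), an interval that leaves room for a several-fold difference either way.

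The spread of Ido1 within groups exceeded counting error. Control replicate 2 had 39 reads of Ido1, and 95% Poisson limits placed its normalised count between 26.3 and 50.6. For control replicate 1 the limits were 218 to 265, and for control replicate 3, with fewer reads in total, 230 to 333. In 72h-αGal the limits of replicate 3 were 20.4 to 39.2 and those of replicate 2 were 414 to 499. These limits cover counting error only and treat reads as independent. Without control replicate 3 the 18 h log2 fold changes were 3.72 for Ido1 (adjusted p = 0.207) and 1.79 for Wars1 (adjusted p = 4.28e-05).

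Within each group, Ido1 ordered the 3 mice as the summed goblet cell markers did, and this was chosen after the values were seen, from 10 marker lists compared with each gene. The goblet sums (Muc2, Tff3, Fcgbp, Clca1, Zg16, Agr2 and Spdef) were 222890, 203980 and 262010 normalised counts in control, 341740, 129910 and 119350 in 18h-αGal, and 236900, 372750 and 194040 in 72h-αGal. The same order was thus seen in 3 of 3 groups for Ido1 and in 0 of 3 for Wars1. Enterocyte markers ordered the mice like Ido1 in 2 of 3 groups, and Paneth, tuft and stem markers in the opposite order in 2 of 3 each. Stem markers ordered the mice of 18h-αGal like Ido1. Between control and 18h-αGal the goblet sums overlapped, and Ido1 was higher in both 18h-αGal mice with the lowest goblet sums than in any control. Of the 7 goblet genes 1, Agr2, was called higher at 18 h by edgeR (log2 fold change 0.66, adjusted p = 0.0359) and by DESeq2. The edgeR call was lost in 8 of 15 alternative analyses, and edgeR called 3.27% of all genes higher. With 3 mice a group, the part of cell composition in the spread of Ido1 was not tested.

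**Figure D2:**
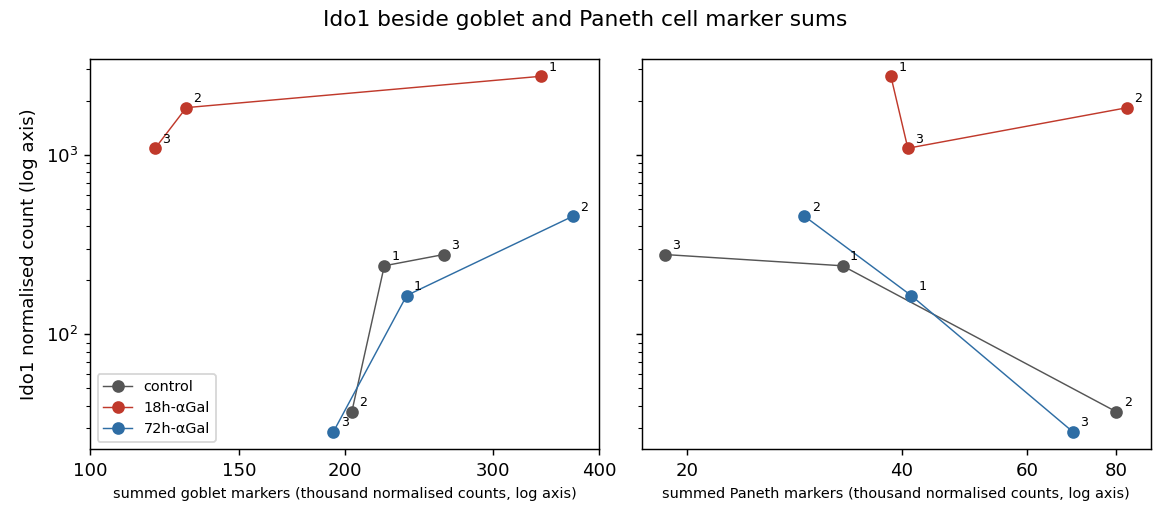
Normalised counts of Ido1 (vertical, log axis) against the summed normalised counts (axis in units of 1000) of goblet markers (left) and Paneth markers (right), on log axes. Points are libraries with their replicate number, and lines join the 3 libraries of a group in the order of the horizontal axis. On the left the lines of all 3 groups rise, and on the right those of control and 72h-αGal fall.

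Stem cell markers were lower at 18 h, from 11720 to 39656 summed normalised counts against 42510 to 82375 in the controls, with 0 of 6 genes called by edgeR (2 at an unadjusted p under 0.05) and 2 called lower by DESeq2, Axin2 and Slc12a2. Tuft cell markers, of which 6 of 7 were in the table, summed to 5047 to 10053 at 18 h and 2834 to 5090 in the controls, with Avil called by edgeR (log2 fold change 1.21, adjusted p = 0.0189; lost in 3 of 15 alternative analyses) and Avil, Sh2d6 and Trpm5 by DESeq2. Stromal markers (6 of 7 in the table) summed to 24.8 to 49.4 at 18 h against 94.0 to 102 in the controls. In each 18h-αGal library 3 to 4 of these 6 were at 0. Of the 3 stromal genes tested, edgeR and DESeq2 called 0 at 18 h, with a smallest adjusted p of 0.258 in edgeR. At 18 h edgeR called 3.27% of all genes tested higher and 2.69% lower, and DESeq2 called 3.55% and 4.03%. The part of these marker differences in the changes of Ido1 and Wars1 was not tested.

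Wars1 was compared with the other aminoacyl-tRNA synthetases, each of which loads a given amino acid onto its tRNAs. Of the 20 cytosolic synthetase genes tested, 9 rose at 18 h and 0 fell, against 3.27% and 2.69% of all genes tested. The median log2 fold change was 0.44 against -0.03 over all genes. Without Wars1, 8 of 19 rose, and fold changes ran from -0.17 for Qars1 to 0.76 for Cars1, so that Wars1 stood well above the range of the others. The lysyl-tRNA synthetase gene Kars1 rose by 0.71 ± 0.11 (adjusted p = 0.00215). The threonyl-tRNA synthetase gene Tars1 rose by 0.74 ± 0.12 (adjusted p = 0.00209), and the asparaginyl-tRNA synthetase gene Nars1 by 0.69 ± 0.14 (adjusted p = 0.00504). The other genes called were Aars1, Cars1, Gars1, Rars1 and Vars1, with log2 fold changes between 0.48 and 0.76. The calls of Wars1, Kars1, Nars1 and Tars1 held in each of 15 alternative analyses, whereas that of Rars1 was lost in 10. The count fell to 5 without control replicate 1 and to 4 without 18h-αGal replicate 2.

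At 72 h, 0 of the 20 cytosolic genes were called against control by edgeR or DESeq2 (2 at an unadjusted p under 0.05), with a median log2 fold change of 0.03. In that comparison edgeR called 0.0264% of all genes. Between 18 and 72 h, 8 of the 20 fell and 0 rose, against 6.04% and 4.18% of all genes tested. Kars1 was at -0.69 (adjusted p = 0.00183) and Tars1 at -0.73 (adjusted p = 0.00174).

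Of the 17 mitochondrial synthetase genes tested, edgeR and DESeq2 called 0 at 18 h (1 at an unadjusted p under 0.05). Over all genes edgeR called 3.27% higher and 2.69% lower. For the mitochondrial genes the median log2 fold change was -0.03, and values ran from -0.32 to 0.43. Wars2, the mitochondrial counterpart of Wars1, had normalised counts of 280, 316 and 302 in control, 290, 277 and 212 in 18h-αGal, and 371, 352 and 363.5 in 72h-αGal. Its log2 fold change at 18 h was -0.19 ± 0.20 (adjusted p = 0.66). The log2 ratio of Wars1 to Wars2 went from 2.97 ± 0.07 (SD, n = 3) in control to 4.98 ± 0.13 at 18 h and was 2.83 ± 0.13 at 72 h.

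**Figure D3:**
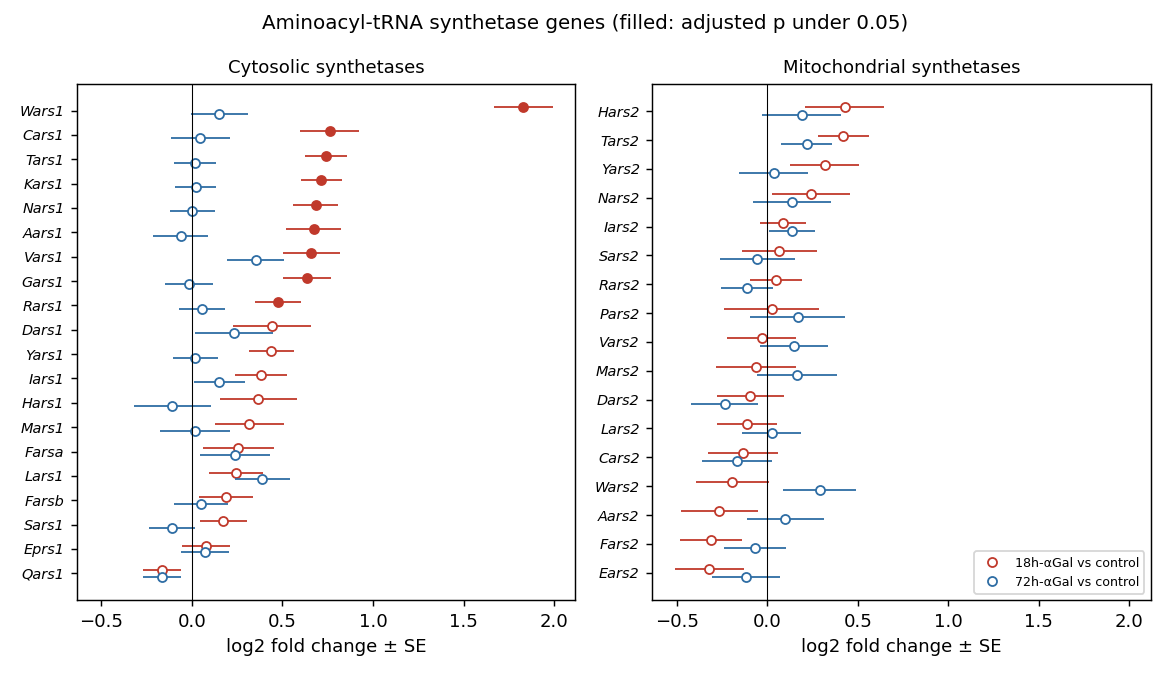
Log2 fold changes against control (horizontal, ± SE) of the 20 cytosolic and 17 mitochondrial aminoacyl-tRNA synthetase genes, for 18h-αGal (red) and 72h-αGal (blue), from 3 mice a group. Filled points had an adjusted p under 0.05 in edgeR. Wars1 at 18 h, at 1.83, lies apart from the other genes, the next of which is Cars1 at 0.76.

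Measured within each library, Wars1 made up a larger share of its gene family at 18 h. Its share of all cytosolic synthetase counts was 6.18%, 6.98% and 6.64% in the controls, 16.8%, 16.4% and 12.9% at 18 h, and 7.24%, 6.40% and 7.18% at 72 h. The log2 ratio of Wars1 to the sum of the 19 other genes was -3.82 ± 0.09 (SD, n = 3) in control, -2.47 ± 0.25 in 18h-αGal and -3.75 ± 0.11 in 72h-αGal. The difference of 1.35 between 18h-αGal and control gave p = 0.1 in a two-sided exact permutation test, and with 3 mice on each side no lower p is possible. The difference from 18 to 72 h was -1.28 (exact permutation p = 0.1), and that from control to 72 h was 0.08 (exact permutation p = 0.5). Per kilobase of canonical transcript, Wars1 ranked 7 of 20 in control, at 827 ± 81.0 normalised counts per kb. At 18 h it ranked 1, at 2921 ± 663, although its lowest library (2159) lay below the highest of Kars1 in rank 2 (2275). At 72 h it ranked 4, at 910 ± 105, where it overlapped with Nars1 in rank 3 and Farsb in rank 5.

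Of the enzymes that act after IDO1, edgeR called 1 at 18 h. The kynurenine and NAD list held 17 genes, of which 16 were in the table and 12 had enough counts to be tested. At 18 h edgeR called 1 of the 12 higher and 0 lower, against 3.27% and 2.69% of all genes tested. The median log2 fold change of the 12 was -0.04. The gene called was Got2, a mitochondrial aspartate aminotransferase that also transaminates kynurenine, at 0.57 ± 0.13 (adjusted p = 0.0212), and its call was lost in 4 of 15 alternative analyses. Each of the 4 left out 1 library, namely control replicate 1 or 2 or 18h-αGal replicate 1 or 2. Afmid, the formamidase of the second step, had a log2 fold change of -0.79 ± 0.28 (adjusted p = 0.118) and lower counts without overlap, at 52.5, 44.4 and 36.2 normalised counts per kb against 91.1, 71.0 and 69.4. Lower values without overlap were found for 12.3% of all genes tested at 18 h. Afmid shares exon bases with another gene model on the same strand that was not in the table.

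Most enzymes between kynurenine and quinolinic acid, and Qprt after it, were barely counted in these cells, whereas Nadsyn1, Nmnat1 and Nmnat3, which act later in NAD synthesis, were well counted. Raw counts of Kynu, the kynureninase, were 0 in all 3 controls, 0, 3 and 11 in 18h-αGal, and 0, 0 and 10 in 72h-αGal. Those of Qprt, which makes nicotinic acid mononucleotide, did not exceed 6 in any library. Kmo, the kynurenine 3-monooxygenase, had 4 to 24 raw counts per library and a log2 fold change of -0.35 ± 0.94 (adjusted p = 0.885). Haao ranged from 0 to 36 raw counts. A count of 0 allows up to 3 reads, and for these genes a change was not detectable at this depth.

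The other enzymes of the first step were low too. Ido2, which lies beside Ido1 on chromosome 8 from 25021908 to 25066349, had 16 raw counts in 18h-αGal replicate 2 and 0 to 5 in the other libraries, and it was not tested. Tdo2, the tryptophan dioxygenase best known from liver, had 0 to 36 raw counts. Per kilobase, Ido1 ranked 6 of 16 in the list in control, at 119 ± 83.1 normalised counts per kb, 2 at 18 h, at 1206 ± 529, and 5 at 72 h, at 138 ± 139. At 18 h it did not differ beyond its spread from Got2 in rank 1 (1245 ± 163), while its lowest library (696) was above the highest of Nadsyn1 in rank 3 (394). In control Ido1 overlapped with Nmnat1 in rank 5 and Afmid in rank 7, and at 72 h with its neighbours Kyat1 and Nmnat1.

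Nmnat1, which acts in NAD synthesis in the nucleus, had a log2 fold change of 0.66 ± 0.22 at 18 h (adjusted p = 0.101). It fell by 0.75 between 18 and 72 h (adjusted p = 0.0458). With Got2, which fell by 0.56 (adjusted p = 0.0154), it made up the 2 genes of the list called lower in that comparison. There 6.04% of all genes tested were called lower. The call of Nmnat1 was lost in 7 of 15 alternative analyses and that of Got2 in 4.

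**Figure D4:**
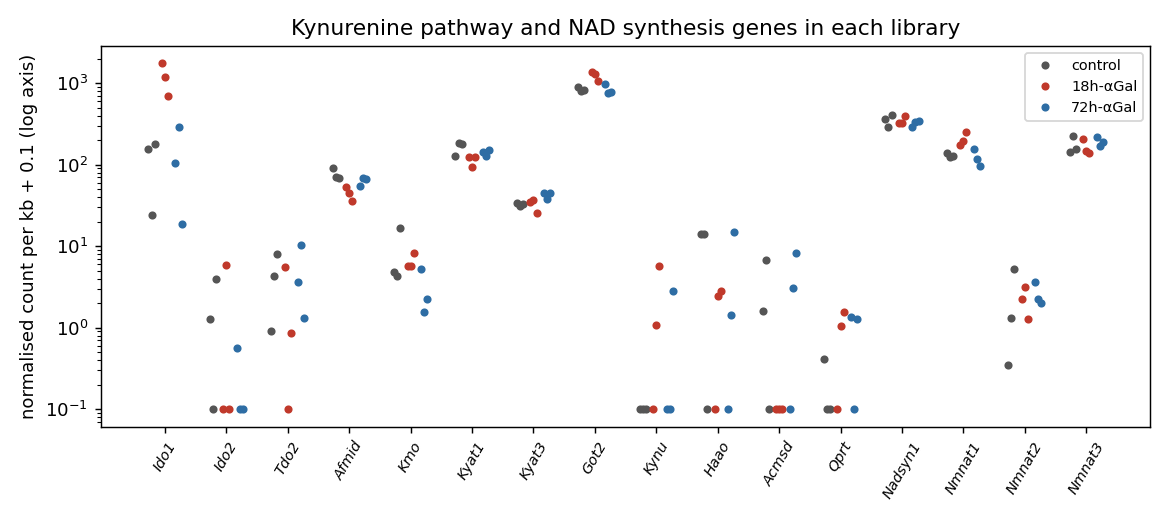
Normalised counts per kb of canonical transcript, plus 0.1, on a log axis, for the 16 kynurenine and NAD genes in the table, 1 point per library in control (grey), 18h-αGal (red) and 72h-αGal (blue). Ido1 at 18 h lies at 696 to 1752, a range that includes that of Got2 (1061 to 1373), while Ido2, Tdo2, Kmo, Kynu, Haao, Acmsd, Qprt and Nmnat2 stay below 20 in every library.

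The other routes of tryptophan lead to serotonin and depend on uptake of the amino acid. Among 6 tested genes of serotonin synthesis, transport and breakdown, 1 fell at 18 h, against 2.69% of all genes tested. The gene that fell was Maob, a monoamine oxidase, at -1.30 ± 0.29 (adjusted p = 0.0241), a call lost in 5 of 15 alternative analyses. Its mean normalised counts were 1520 in control, 615 in 18h-αGal and 648 in 72h-αGal. Against control at 72 h Maob was called lower by DESeq2 but not by edgeR. Tph1, the tryptophan hydroxylase of enterochromaffin cells, was at 0.24 ± 0.14 at 18 h (adjusted p = 0.377) and was 1.32 ± 0.15 lower than control at 72 h (adjusted p = 0.00512), a call lost without control replicate 1, 72h-αGal replicate 1 or 72h-αGal replicate 3. Of 7 genes for tryptophan uptake tested by edgeR, 0 were called at 18 h (1 at an unadjusted p under 0.05). DESeq2 called 0 of the 8 genes to which it gave an adjusted p there. Over all genes edgeR called 3.27% higher and 2.69% lower, so 0 of 7 is near the share of all genes. The apical transporter gene Slc6a19 was at 0.08 ± 0.47, and Slc7a5, the large neutral amino acid transporter, at -0.07 ± 0.46.

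A pair of sensors downstream of the enzymes was examined by their target genes. The kinase GCN2 responds to uncharged tRNA through the factor ATF4. Of 19 listed genes 2 rose and 2 fell at 18 h, against 3.27% and 2.69% of all genes tested. The median log2 fold change of the list was -0.07. The aminoacyl-tRNA synthetase genes reported above were not part of this list. Psat1, of serine synthesis, rose by 1.63 ± 0.27 (adjusted p = 0.00291), from 287, 176 and 140 normalised counts in the controls to 684, 716 and 477. Shmt2, of mitochondrial serine metabolism, rose by 0.998 ± 0.24 (adjusted p = 0.034), a call lost in 9 of 15 alternative analyses, and it shares exon bases with Ndufa4l2 on the opposite strand. The stress factor gene Atf3 fell by 0.70 ± 0.10 (adjusted p = 0.00136), and Ppp1r15a, a phosphatase subunit that restores translation, fell by 0.56 ± 0.14 (adjusted p = 0.0241), a call lost in 4 of 15 alternative analyses. DESeq2 called 4 genes of the list higher and 2 lower, adding Asns and Phgdh, against 3.55% and 4.03% of all genes it tested. In edgeR Asns, the asparagine synthetase, was at 0.70 ± 0.22 (adjusted p = 0.0795), Phgdh, of serine synthesis, at 1.01 ± 0.33 (adjusted p = 0.101), Atf4 itself at 0.02 ± 0.10 and Eif2ak4, which encodes GCN2, at -0.10 ± 0.24.

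For the aryl hydrocarbon receptor, which binds tryptophan metabolites, edgeR called 0 of the 7 genes it tested at 18 h (0 at an unadjusted p under 0.05). DESeq2 called 0 of the 8 genes to which it gave an adjusted p. With 3.27% of all genes called higher and 2.69% lower by edgeR, 0 of 7 is near the share of all genes. The receptor's target Cyp1a1 had normalised counts of 163, 106 and 152 in control, 64.3, 1.80 and 55.2 in 18h-αGal, and 48.6, 122 and 20.6 in 72h-αGal. These were lower at 18 h without overlap, as for 12.3% of all genes, with a log2 fold change of -1.78 ± 0.91 (adjusted p = 0.308). Ahr was at -0.17 ± 0.15 and the target Tiparp at -0.29 ± 0.14 (adjusted p = 0.262).

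Of the genes that act between the IFN-γ receptor and IRF1, Socs1, a feedback inhibitor, rose at 18 h by 1.60 ± 0.22 (adjusted p = 0.00106). The factor gene Irf1 rose by 0.76 ± 0.16 (adjusted p = 0.0135). That call was lost without control replicate 1 or 18h-αGal replicate 2, and the exons of Irf1 overlap with genes on the opposite strand. The receptor genes Ifngr1 and Ifngr2 were at -0.16 ± 0.11 and -0.54 ± 0.18 (adjusted p = 0.454 and 0.0999). The kinase genes Jak1 and Jak2 were not called at 18 h, where edgeR called 3.27% of all genes higher. Jak2 was called lower from 18 to 72 h, as were 6.04% of all genes in edgeR. That call was lost in 7 of 15 alternative analyses. Normalised counts of Socs1 were 187, 144 and 162 in control and 469, 449 and 571 in 18h-αGal, so that, unlike those of Ido1, they varied little between mice of a group.

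Ido1 and Wars1 were not each other's closest match over the 9 libraries. Among 11149 genes with a mean of at least 100 counts, Pearson's r of log2 CPM between them was 0.77, which placed Wars1 at rank 1099 for Ido1 and Ido1 at rank 1164 for Wars1. The genes most like Wars1 were Ccnd1 (cyclin D1, r = 0.993), Med14 (0.990), Ddx39a (0.987), Mif (0.986) and Pnpt1 (0.986), with Kars1 at rank 7. Of these Mif rose by 1.53 ± 0.16 at 18 h (adjusted p = 0.000124) and Ccnd1 by 1.27 ± 0.15 (adjusted p = 0.00027). The genes most like Ido1 were Cdk2ap2 (r = 0.975), Galnt1, which starts mucin-type O-glycosylation (0.972), Grk2 (0.956), Vcp-rs (0.951) and Sec61a1, a subunit of the protein channel of the endoplasmic reticulum (0.949). Their changes at 18 h were much smaller than that of Ido1, between 0.25 for Grk2 and 0.57 for Galnt1. These correlations are a description over libraries that share the group difference at 18 h.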

How the data were processed

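Per the labels and the study's methods, RNA of sorted IECs was made into ribodepleted directional libraries and mapped with HISAT2. The submitters' processing notes also name featureCounts and DESeq2 1.42.0. The methods give build GRCm39 and the notes GRCm38/mm10, so positions here come from GENCODE vM39 by gene ID (28480 of 29288 IDs matched). The strand setting and annotation release were not given in the sources used here. The authors deposited raw counts per gene and a normalised signal, which equalled the count divided by 1 factor per library and is not corrected for length. The table held no gene with fewer than 6 counts in total.

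Raw counts were tested with edgeR 4.0.16 in R 4.3.3: filterByExpr (18933 genes kept), TMM scaling, 1 robust quasi-likelihood fit of all 9 libraries, 3 contrasts and Benjamini-Hochberg adjustment, with calls at an adjusted p under 0.05. Levels are deposited normalised counts, divided by the canonical transcript length where genes are compared. Ratios were tested with exact permutation tests. The alternatives were DESeq2 1.42.0, limma 3.58.1 (log2 of normalised counts + 1), DESeq2-style scaling in edgeR, no filter, 2 groups only, a replicate block and leaving out each library. The procedure was tested on simulated data.

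Gene lists were written from general knowledge; the members and lists were chosen with earlier results of these data known. Named were both members, listed genes by preference when called, partner genes, and the 5 genes most correlated with each member. A floor of 3 counts per library is 0.0917 to 0.338 CPM. Among counts of 1 to 20, 69.5% to 73.1% were even in each library, against 50.0% to 51.4% of counts of 100 or more. Low counts thus tended to come in pairs, as when both reads of a fragment are counted, which was not tested; a raw count may then stand for fewer fragments and Poisson limits may be too narrow. Intervals cover counting error only. Each mouse gave 1 library. Replicate numbers recur in the groups, and whether they mark a pairing is not stated in the labels used here. A listed gene of the IFN-γ axis is not reported here.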

Additional observations from a re-analysis of the deposited data

Results flagged for a closer look

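Wars1 differed between the αGal groups sampled at 18 and 72 h. With controls at 18 h only, treatment and time of sampling cannot be told apart in this difference. Measured against the same controls, the log2 fold change at 72 h minus that at 18 h was -1.68, which equals the contrast of both αGal groups tested in the report (adjusted p = 5.89e-05, edgeR). All 3 mice of 72h-αGal were below all 3 of 18h-αGal, as for 16.3% of genes tested. The same contrast for Ido1, at -3.14, did not pass the threshold (adjusted p = 0.141).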

How the results depend on the processing

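Wars1 kept its direction and its side of the threshold in all 15 alternatives for each of the 3 comparisons, with log2 fold changes at 18 h between 1.72 and 2.01. Ido1 at 18 h kept its direction in all 15 (2.89 to 3.73), and DESeq2 was the only alternative that called it, at 3.35 from control to 18 h and at -3.13 from 18 to 72 h. The adjusted p of Ido1 at 18 h ranged from 0.0214 to 0.298. Without 72h-αGal replicate 2 the fall of Ido1 from 18 to 72 h was -4.34, and without replicate 3 it was -2.60.

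For Ido1 from control to 72 h the sign depended on the analysis. It was -0.049 with the replicate block and -0.065 with limma, and leaving out 1 library gave -0.94 to 0.80, negative without control replicate 2 (-0.25) or without 72h-αGal replicate 2 (-0.94). The cause was not tested, and no such value passed the threshold.

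At 18 h, 2 kynurenine genes were called with DESeq2 (Got2 and Ido1), and 0 to 1 when 1 library was left out (0 without control replicate 1 or 2, or 18h-αGal replicate 1 or 2). The 9 calls among cytosolic synthetases became 4 to 9 when 1 library was left out and 7 to 10 otherwise. The 4 calls of the GCN2 and ATF4 list became 6 with DESeq2, 3 to 5 in the other alternatives that kept all libraries of both groups, and 2 to 5 when 1 library was left out, with 2 without control replicate 1, 18h-αGal replicate 1 or 18h-αGal replicate 2. The mitochondrial count stayed at 0 in all 15. The ratio of Wars1 to the other cytosolic synthetases differed by 1.27 to 1.496, with exact permutation p between 0.1 and 0.2, where 2 mice against 3 cannot go below 0.2.

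Same-numbered libraries deviated from their group means with correlations of -0.15 to 0.11. Libraries with different numbers were not compared, so these values cannot decide whether the numbers mark a pairing. With the replicate block the 18 h changes were 3.21 for Ido1 (adjusted p = 0.298) and 1.81 for Wars1 (adjusted p = 0.000211), and 8 cytosolic synthetases were called. With 3 mice a group and the spread of Ido1, its change is known only within wide limits.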
